A study of Mus musculus with 9 samples.

Results

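The galectin genes of the mouse are described here in RNA from unstimulated RAW264.7 cells, a mouse macrophage line. A set of 7 genes was followed: Lgals1, Lgals3, Lgals4, Lgals8 and Lgals9, which encode galectins, Lgalsl, which encodes a galectin-like protein, and Lgals3bp, which encodes a secreted glycoprotein that galectins bind. They are 7 of the 55487 genes in the count lists, found by matching their symbols to Ensembl identifiers. The set was put together around Lgalsl, whose count was 0 in every library of the knock-out cells, so its values are given as a description, with no test. The other 6 genes were listed for their family, with earlier results of these data known.

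Wild-type cells, C/EBPδ knock-out cells and ΔTAD cells gave 3 libraries each. C/EBPδ, encoded by Cebpd, is a transcription factor that binds CCAAT-type sequences, and ΔTAD cells carry it without its transactivation domain, expressed from its own locus. Both edits were made with CRISPR/Cas9 guides on either side of that domain and were homozygous. Knock-out cells are clones from the same approach whose mutation was out of frame. For each edited genotype 3 clones had been selected, so differences between clones and between genotypes can only be separated by the spread over 3 libraries. Nothing in the sources used here says whether the wild-type libraries came from clones or from separate cultures, so p-values measure the spread between these libraries. No cells had been stimulated.

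Galectins are small lectins that bind galactose-containing glycans. They are made in the cytosol, leave the cell by a route that bypasses the classical secretory pathway, and cross-link glycoproteins at the cell surface. Inside the cell they are recruited to glycans exposed when an endosome or lysosome is torn, which makes them markers of membrane damage. Macrophages are known as a rich source of galectin-3, the product of Lgals3, and galectin-3 was long used as a macrophage surface antigen.

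The sugar-binding core shows how the members differ, so the coding sequence around it is given for the 5 galectins of the set. The capitals mark 5 codons that read histidine, any residue, asparagine, proline and arginine, with 2 codons on the 5′ side and 2 on the 3′ side. The sequences were read from the GENCODE transcripts of GRCm38, on the coding strand and 5′ to 3′, and each lies in a single exon.
Lgals1, chr15:78929670-78929696, plus strand: tgcctaCACTTCAATCCTCGCttcaat
Lgals3, chr14:47384636-47384662, plus strand: gccttcCACTTTAACCCCCGCttcaat
Lgals8 first site, chr13:12454867-12454893, minus strand: gccttcCACTTTAACCCTCGGttcaaa
Lgals8 second site, chr13:12447246-12447272, minus strand: gctctgCACTTGAACCCACGCctcaat
Lgals9 first site, chr11:78973120-78973146, minus strand: gccttcCACTTCAACCCCCGGtttgag
Lgals9 second site, chr11:78965794-78965820, minus strand: gctttcCACCTGAACCCCCGTttcaat
Lgals4 first site, chr7:28835873-28835899, plus strand: gctttcCACTTCAATCCCCGCtttgat
Lgals4 second site, chr7:28841185-28841211, plus strand: gctttaCACCTAAACCCCCGCataggt

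Lgals1 and Lgals3 held 1 such stretch, which is how galectins with a single sugar-binding domain are built. Lgals8, Lgals9 and Lgals4 held 2, as tandem-repeat galectins do. In Lgals1 the stretch sat at codons 45 to 49 of 135, and in Lgals3, which carries a long repetitive N-terminal arm, at codons 172 to 176 of 264. The coding sequences of Lgalsl, with 172 codons, and Lgals3bp, with 577 codons, held no match. Lgalsl is known as a galectin-related protein whose altered pocket does not bind lactose, and Lgals3bp is built on a scavenger receptor cysteine-rich domain instead.

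The libraries held 16113306 to 20981829 counts on genes. Replicates of a genotype differed by more than sampling noise and were kept as separate samples. In ΔTAD replicate 1 a single gene, CT010467.1, took 11.0% of the counts, and the scaling factor of that library was 0.888, so results are given without it where it matters. Levels are CPM, which are counts scaled to library size and composition (TMM factors of edgeR), and genes are compared with each other only per length, as TPM, the same kind of share after division by exon length. Of 9 macrophage markers, 8 exceeded 10 CPM in every genotype, among them Cd68, Csf1r and Lyz2, and Mrc1 stayed at 8 counts or fewer. Their summed level was 3280 to 3481 CPM in wild-type, 4375 to 4750 CPM in knock-out and 6883 to 7032 CPM in ΔTAD libraries, mostly through Lyz2, the lysozyme of myeloid cells, with means of 1166, 2112 and 4187 CPM. Adgre1, Cd68, Spi1 and Cd14 had means in the same order, as Spi1 with 117, 143 and 203 CPM. Csf1r, Itgam, Fcgr1 and Mrc1 did not, as Fcgr1, an Fc receptor, with means of 39.4, 17.8 and 28.9 CPM. The part of these differences in the galectin values was not tested. Of 10 markers of other cell types, only 2 exceeded 3 counts in any library, Pecam1 with up to 51 counts and Cd4 with up to 6, and 7 were at 0 counts throughout. The summed level of that list was 1.91 to 2.69 CPM in wild-type, 0.483 to 0.736 CPM in knock-out and 0.285 to 0.528 CPM in ΔTAD libraries. Cebpd itself stood at -0.26 ± 0.125 in knock-out cells (edgeR, adjusted p = 0.0850) and -0.24 ± 0.123 in ΔTAD cells (adjusted p = 0.0931) on the log2 scale against wild-type, and since the edit leaves most of the transcript in place, its level does not check the labels.

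Lgals1 and Lgals3 made up nearly all galectin RNA of these macrophages, at levels far above the other members. Per length, the wild-type level was 1006 TPM ± 30.9 (SD, n = 3) for Lgals1 and 816 TPM ± 5.38 for Lgals3. Lgals8 followed at 38.1 TPM ± 1.67, Lgals3bp at 32.4 TPM ± 2.77, Lgalsl at 19.2 TPM ± 0.254, Lgals9 at 6.69 TPM ± 0.715 and Lgals4 at 0.560 TPM ± 0.338. In this order no 2 neighbours shared any part of their range over the wild-type libraries. The summed counts of the 7 genes took 0.0849% of all wild-type counts, 0.114% of knock-out counts and 0.119% of ΔTAD counts. Knock-out cells had Lgals3 on top, at 1198 TPM ± 34.9, followed by Lgals1 at 1096 TPM ± 36.4. Lgals3bp, at 67.8 TPM ± 4.47, stood above Lgals8, at 56.6 TPM ± 1.72, in knock-out cells.

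**Figure D1:**
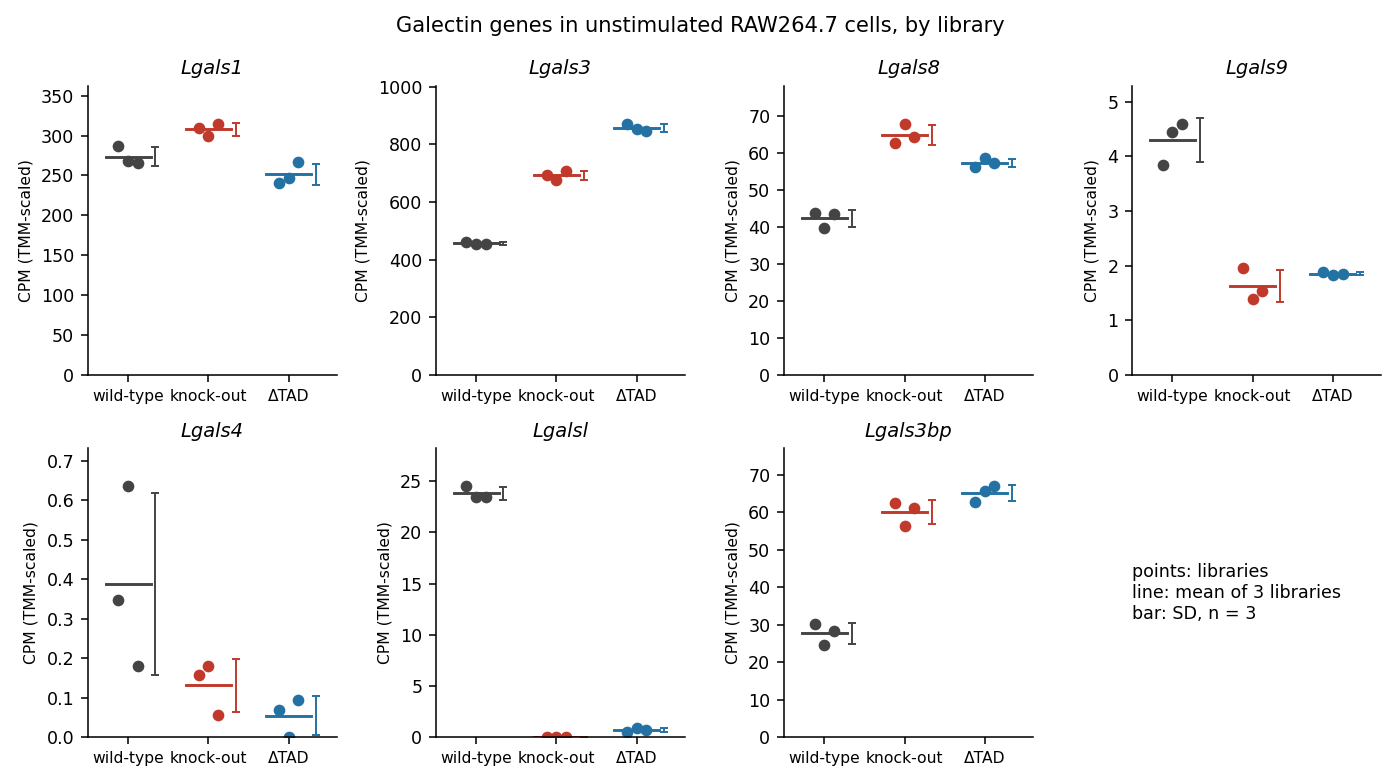
TMM-scaled level in CPM of each of the 7 genes in each library, grouped by genotype on the x axis, with points for libraries, a line for the mean and a bar for the SD of 3 libraries. Lgals3, Lgals3bp and Lgals8 lie higher in both edited genotypes than in wild-type, and Lgals9 and Lgalsl lie lower in both.

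Against wild-type, knock-out macrophages carried more Lgals3, Lgals3bp and Lgals8 and less Lgals9 RNA, with a small rise of Lgals1. In bulk RNA, fewer cells that express a gene and less of its RNA per cell cannot be told apart. edgeR's quasi-likelihood test over all 14312 genes with enough counts, with Benjamini-Hochberg adjustment and a threshold of 0.01, called all 5 members that it tested, 4 higher and 1 lower. Of all genes, 45.2% were called in this comparison, 22.8% higher and 22.4% lower, so a call on its own sets no gene apart in these cells. The median log2 fold change of the 5 was 0.60, and that of all genes tested was -0.0011. Lgals4 did not reach the count filter. Lgalsl passed it only through its wild-type libraries, so it had to come out lower elsewhere. It is left out of every count of members called in these Results. Libraries of the 2 genotypes did not overlap for the 5 genes, where 59.7% of all genes tested showed no overlap.

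In ΔTAD macrophages Lgals3, Lgals3bp and Lgals8 were again higher than in wild-type and Lgals9 lower. Of the same 5 members, 3 were called higher, 1 lower and 1, Lgals1, was not called, against 49.7% of all genes, 26.3% higher and 23.4% lower. The median over the 5 was 0.44, and that of all genes was -0.0033. For 4 of the 5 the libraries did not overlap, against 63.1% of all genes, and Lgals1 was the exception. Both comparisons use the same wild-type libraries, so they are not independent of each other. The direct comparison of knock-out with ΔTAD cells called 2 of 5 tested members higher in knock-out, 1 lower and 2 neither way, against 33.0% of all genes, 13.9% higher and 19.1% lower. Libraries of those genotypes did not overlap for 4 of the 5, against 52.8% of all genes, and Lgals9 was the exception. The median over the 5 was -0.12, and that of all genes was -0.0283.

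**Figure D2:**
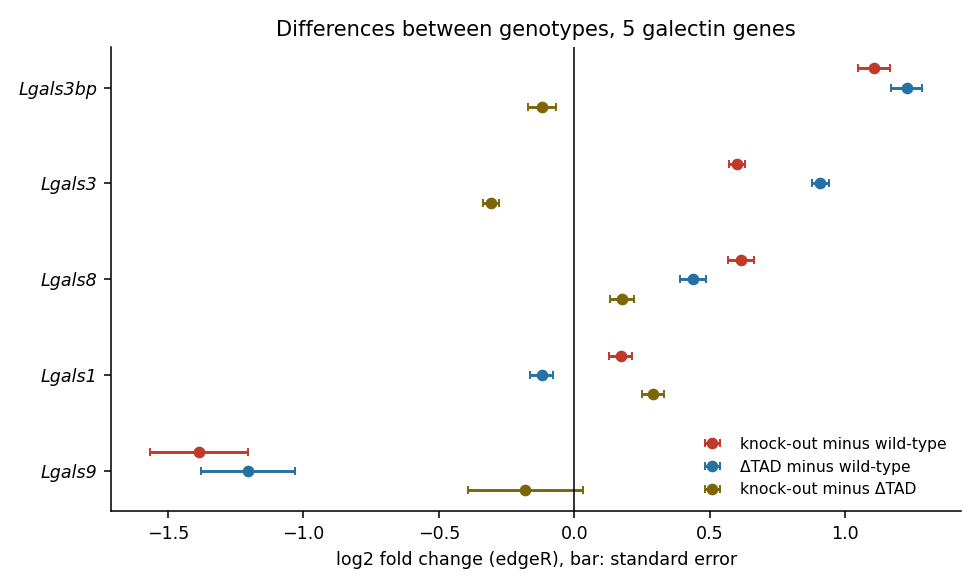
Log2 fold change of the 5 members tested in every comparison, with points for the edgeR estimate and bars for its standard error, coloured by comparison. Lgals3bp reaches 1.23 in ΔTAD minus wild-type, Lgals9 falls to -1.39 in knock-out minus wild-type, and Lgals1 lies at 0.17 in knock-out and at -0.12, not called, in ΔTAD cells.

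Lgals3 encodes galectin-3, the galectin with a self-associating N-terminal arm that macrophages make in bulk. The gene (ENSMUSG00000050335, chr14:47367751-47386160) had 462, 453 and 453 CPM in the wild-type libraries. Knock-out libraries had 692, 676 and 708 CPM, and ΔTAD libraries 872, 852 and 844 CPM. All 3 genotypes were thus separate, with ΔTAD highest. The difference from wild-type was 0.60 ± 0.0304 on the log2 scale in knock-out cells (edgeR, adjusted p = 1.69e-14), or 1.52-fold. ΔTAD cells stood 0.91 ± 0.0305 above wild-type (adjusted p = 4.33e-18), or 1.88-fold. Knock-out cells lay 0.31 below ΔTAD cells, a log2 fold change of -0.31 ± 0.0302 (edgeR, adjusted p = 1.51e-08). Without ΔTAD replicate 1 the ΔTAD difference from wild-type was 0.87.

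Lgals1 encodes galectin-1, a homodimeric galectin that binds glycans of T cell surface proteins. The gene (ENSMUSG00000068220, chr15:78926725-78930465) had 287, 268 and 265.0 CPM in wild-type libraries. Knock-out libraries held 309, 299 and 315 CPM, and ΔTAD libraries 241, 247 and 266 CPM. The knock-out values lay above all others, and the highest ΔTAD library fell inside the wild-type range. Knock-out cells exceeded wild-type by 0.17 ± 0.0414 (edgeR, adjusted p = 0.00111), a call that ended without knock-out replicate 3 (0.15, adjusted p = 0.0133), without wild-type replicate 3 (0.15, adjusted p = 0.0101) and with scaling by library size alone (0.16, adjusted p = 0.0414). ΔTAD cells differed from wild-type by -0.12 ± 0.0415 (edgeR, adjusted p = 0.0151), which missed the threshold and which DESeq2 called (adjusted p = 0.00374). The edited genotypes differed directly, with knock-out 0.29 ± 0.0415 above ΔTAD (edgeR, adjusted p = 4.40e-06), and this call held without each library in turn. Processed pseudogenes of Lgals1 took at most 1 count, so few of its reads had been assigned there. Records without a unique alignment, 11.8% to 16.3% of a library, were tallied apart, and how many came from Lgals1 is not known.

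The balance of Lgals3 and Lgals1 was followed library by library. Per kb of exon, Lgals3 was at 0.783, 0.821 and 0.831 of the Lgals1 level in wild-type libraries. The ratio was 1.09, 1.10 and 1.09 in knock-out libraries and 1.76, 1.68 and 1.54 in ΔTAD libraries. Lgals1 thus led in every wild-type library and Lgals3 in every edited one, and the genotypes did not overlap. The means were 0.812 ± 0.0253, 1.09 ± 0.00493 and 1.66 ± 0.110 (SD, n = 3). An exact two-sided permutation test gave p = 0.10 for each of the 3 pairs of genotypes, also after adjustment over the 3, and this is the smallest p that 3 against 3 libraries allow. Lgals3 made up 42.5% of the summed TPM of the 7 genes in wild-type cells, and this share was 49.5% for knock-out and 59.2% for ΔTAD cells, where Lgals1 held 45.3% and 35.7% after 52.4% in wild-type.

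**Figure D3:**
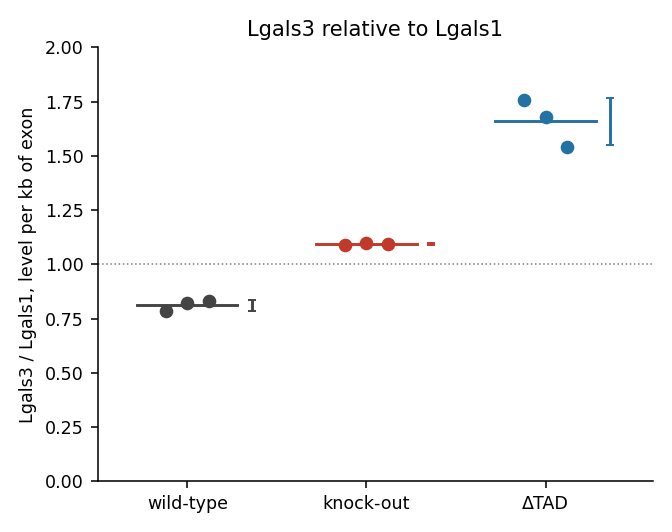
Ratio of the Lgals3 to the Lgals1 level per kb of exon in each library, by genotype, with points for libraries, a line for the mean, a bar for the SD of 3 libraries and a dotted line at 1. Wild-type libraries lie at 0.783 to 0.831, knock-out libraries at 1.09 to 1.10 and ΔTAD libraries at 1.54 to 1.76.

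Lgals3bp encodes the galectin-3-binding protein, a heavily glycosylated secreted ligand of several galectins. The gene (ENSMUSG00000033880, chr11:118392751-118402092) gave 30.2, 24.7 and 28.4 CPM in wild-type libraries. It gave 62.5, 56.4 and 61.1 CPM in knock-out and 62.7, 65.6 and 67.0 CPM in ΔTAD libraries. Each edited library held well above the highest wild-type value, and the edited genotypes lay side by side. The log2 fold change was 1.11 ± 0.0587 in knock-out cells (edgeR, adjusted p = 4.14e-14), or 2.15-fold, and 1.23 ± 0.0578 in ΔTAD cells (adjusted p = 3.31e-15), or 2.34-fold. Knock-out minus ΔTAD was -0.12 ± 0.0516 (edgeR, adjusted p = 0.0610), which was not called although the libraries of these genotypes did not overlap.

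Lgals8 encodes galectin-8, the tandem-repeat galectin known to recruit autophagy receptors to damaged vacuoles. The gene (ENSMUSG00000057554, chr13:12439415-12464944) had 43.8, 39.6 and 43.6 CPM in wild-type libraries. Knock-out libraries had 62.6, 67.9 and 64.3 CPM and ΔTAD libraries 56.2, 58.5 and 57.2 CPM. Knock-out was highest in every library, ΔTAD lay between, and no 2 genotypes overlapped. The rise was 0.62 ± 0.0463 in knock-out cells (edgeR, adjusted p = 3.16e-11), or 1.53-fold, and 0.44 ± 0.0468 in ΔTAD cells (adjusted p = 1.46e-08), or 1.36-fold. Knock-out exceeded ΔTAD by 0.18 ± 0.0441 (edgeR, adjusted p = 0.00214), a call that ended without knock-out replicate 2 (0.15, adjusted p = 0.0188) and without ΔTAD replicate 3 (0.17, adjusted p = 0.0104). Lgals8 overlaps Heatr1, a gene of ribosome biogenesis on the opposite strand. The mode and strand setting of the counting are not given in the sources used here, so how reads from shared bases were counted is not known. Heatr1 itself was lower in both edited genotypes, by -0.37 ± 0.0360 in knock-out cells (edgeR, adjusted p = 3.19e-09) and -0.28 ± 0.0359 in ΔTAD cells (adjusted p = 3.67e-07).

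Lgals9 encodes galectin-9, a tandem-repeat galectin known as a ligand of the inhibitory receptor TIM-3. The gene (ENSMUSG00000001123, chr11:78962974-78984946) was scarce, with 77, 77 and 76 counts in wild-type libraries. It had 37, 23 and 27 counts in knock-out and 27, 38 and 39 in ΔTAD libraries. In CPM these were 3.83, 4.45 and 4.60 in wild-type, 1.95, 1.39 and 1.53 in knock-out and 1.89, 1.82 and 1.85 in ΔTAD. Both edited genotypes lay wholly below wild-type and overlapped with each other. The log2 fold change was -1.39 ± 0.182 in knock-out cells (edgeR, adjusted p = 4.85e-07), or 2.61-fold lower, and -1.20 ± 0.175 in ΔTAD cells (adjusted p = 2.10e-06), or 2.30-fold lower. The direct difference of knock-out and ΔTAD cells was -0.18 ± 0.211 (edgeR, adjusted p = 0.515).

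Lgals4 encodes galectin-4, a tandem-repeat galectin best known from the gut epithelium. The gene (ENSMUSG00000053964, chr7:28833854-28841708) had 7, 11 and 3 counts in wild-type, 3, 3 and 1 in knock-out and 1, 0 and 2 in ΔTAD libraries. These are values at the edge of detection, with ΔTAD and knock-out overlapping. The summed counts were 7 in knock-out against 21 in wild-type cells, a ratio of 0.338 after scaling (exact 95% interval 0.121 to 0.824). For ΔTAD cells the summed count was 3, a ratio of 0.137 (exact 95% interval 0.0262 to 0.459), and both intervals cover counting error only. Other family genes were nearly silent: Lgals2 had at most 4 counts in a library, and Lgals12, Lgals7 and Grifin, which encodes a galectin-related lens protein, had 0 in all 9. A count of 0 allows up to 3 counts, or 0.143 to 0.210 CPM depending on the library.

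Lgalsl (ENSMUSG00000042363, chr11:20823576-20831056, minus strand) was the member whose knock-out values chose the set. Its counts were 492, 406 and 387 in wild-type libraries. They were 0, 0 and 0 in knock-out libraries and 7, 19 and 16 in ΔTAD libraries. The gene was thus read in every wild-type library at about the same level, in no knock-out library, and at a low level in all ΔTAD libraries. The wild-type mean was 23.8 CPM ± 0.614 (SD, n = 3), at least 131-fold higher than knock-out, where the floor of 3 counts per library is 0.181 CPM. ΔTAD libraries held 0.489, 0.911 and 0.761 CPM. Between ΔTAD and wild-type cells the fitted log2 fold change was -4.98 ± 0.142, or 31.6-fold lower, given as a description because the gene was chosen for its high wild-type against 0 knock-out counts and passed the count filter only through wild-type. It was -4.85 without ΔTAD replicate 1. The ΔTAD mean of 0.720 CPM ± 0.214 was at least 3.98-fold higher than the floor for knock-out cells.

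The genes around Lgalsl on chromosome 11 were read for context. Within 1 Mb, 12 other genes were tested, of which 6 were called higher and 2 lower in knock-out cells (45.2% of all genes were called), with a median log2 fold change of 0.12, and 4 higher and 1 lower in ΔTAD cells (49.7% of all genes), with a median of 0.07. The chromosome's 1095 other tested genes had medians of -0.03 and 0.01. Aftph, which encodes a vesicle-trafficking adaptor and lies 82.0 kb away, stood at 0.20 ± 0.0346 in knock-out cells (edgeR, adjusted p = 2.34e-05) and 0.18 ± 0.0345 in ΔTAD cells (adjusted p = 7.56e-05). On the same side, 171 kb away, the transcriptional regulator Sertad2 was at -0.23 ± 0.0487 (adjusted p = 0.000307) and -0.77 ± 0.0510 (edgeR, adjusted p = 2.53e-12). Peli1, a ubiquitin ligase gene 260 kb away on the other side, was at 0.23 ± 0.0640 in knock-out cells (edgeR, adjusted p = 0.00411) and at 0.12 ± 0.0643 in ΔTAD cells (adjusted p = 0.113). The 12 neighbours lay between -0.77, for Sertad2 in ΔTAD cells, and 0.82, for the amino acid transporter gene Slc1a4 in knock-out cells.

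**Figure D4:**
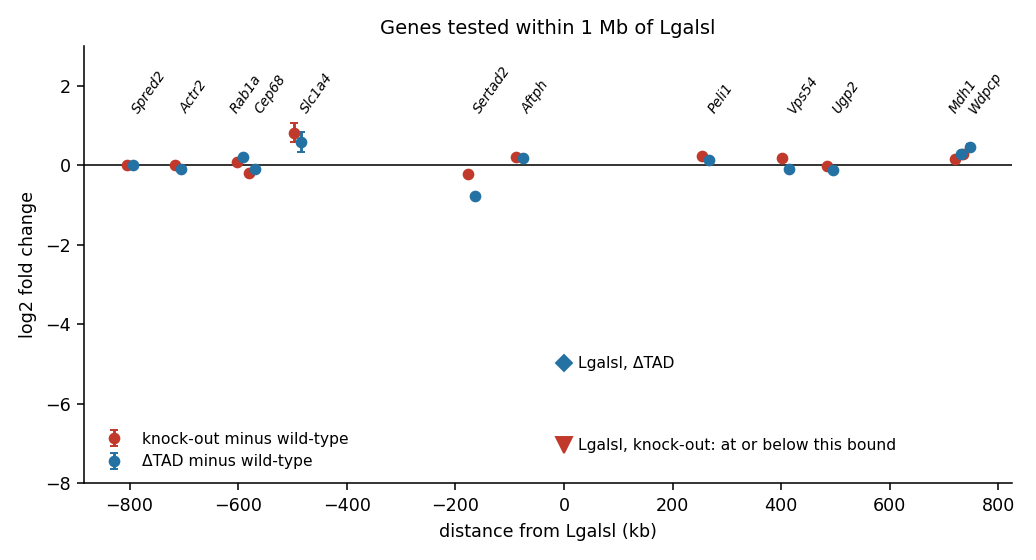
Log2 fold change against wild-type of the 12 genes tested within 1 Mb of Lgalsl, by distance in kb, with bars for the standard error, a diamond for Lgalsl in ΔTAD cells and a triangle for the bound of Lgalsl in knock-out cells. The neighbours lie between -0.77 and 0.82; Lgalsl, at -4.98 in ΔTAD cells, was chosen for its knock-out counts.

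C/EBP proteins bind CCAAT-type sequences, so the 250 bases before the RefSeq start of each member were read for this motif. The study names the NF-Y family of transcription factors as another that binds CCAAT, so a match does not single out C/EBP. A window was found for 6 of the 7 members (RefSeq, GRCm38.p6), and Lgals1 had none. CCAAT, searched on both strands, was in 4 of the 6, those of Lgalsl, Lgals3, Lgals8 and Lgals4, against 33.8% of all 32851 windows of this length. The C/EBP-type motif TTGCNNAA, also on both strands, was in 0 of the 6, against 9.56% of all windows, and no match overlapped another. The Lgals3 and Lgals8 windows lie inside the annotated span of their own gene, so these matches are not upstream of the whole gene, and the windows of Lgals3bp and Lgals9 overlap the span of theirs in part. The window of Lgalsl is shown since the set was put together around this gene, which was chosen on its knock-out counts. It covers chr11:20831109-20831358 on the minus strand, is printed 5′ to 3′ up to the base before the start, and has its CCAAT, 203 bases before the start, in capitals.
Lgalsl: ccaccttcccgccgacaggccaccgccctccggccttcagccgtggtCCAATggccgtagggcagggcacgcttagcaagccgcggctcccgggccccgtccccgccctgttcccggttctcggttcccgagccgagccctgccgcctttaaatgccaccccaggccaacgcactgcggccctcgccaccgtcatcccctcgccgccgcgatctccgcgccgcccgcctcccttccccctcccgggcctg
The window is 74.4% G and C. A match is a description of letters and no evidence of binding.

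Galectins bind what the glycan synthesis enzymes make, so 37 genes listed for building or capping galectin ligands were followed. Of these, 30 had enough counts. In knock-out cells 12 were called higher, 6 lower and 12 neither way, in all 60.0% against the 45.2% of all genes, with a median of 0.05. In ΔTAD cells 13 were higher, 9 lower and 8 neither way, in all 73.3% against 49.7% of all genes, with a median of -0.03. With scaling by library size alone the ΔTAD split was 9 higher and 10 lower. Here and for the lists below, all genes were not matched to the list for expression level, and the difference in shares was not tested. St6gal1, the enzyme that caps galactose with sialic acid in the linkage known to hinder galectin binding, was the largest rise. Its level was 2.10 CPM ± 0.125 in wild-type, 6.92 CPM ± 1.14 in knock-out and 22.9 CPM ± 1.55 in ΔTAD cells (SD, n = 3). The log2 fold changes were 1.73 ± 0.156 (edgeR, adjusted p = 8.44e-10) and 3.44 ± 0.124 (adjusted p = 1.70e-17). B3gnt3, which extends O-glycans with N-acetylglucosamine, was at 1.19 ± 0.0895 in knock-out and 1.57 ± 0.0852 in ΔTAD cells. Fut8, which adds the core fucose of N-glycans, was at -1.27 ± 0.0764 and -1.12 ± 0.0745. St3gal6, another sialyltransferase, was at -0.89 ± 0.0762 and -1.37 ± 0.0800. All 6 values of these 3 genes were called.

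Proteins known to be bound by galectins were covered by 32 genes, 26 of them tested. In knock-out cells 16 were called higher, 3 lower and 7 neither way, in all 73.1% (all genes 45.2%) with a median of 0.15, but with scaling by library size alone only 9 were higher and 2 lower. In ΔTAD cells 12 were higher, 5 lower and 9 neither way, in all 65.4% (all genes 49.7%) with a median of 0.08. Nrp1, a surface receptor bound by galectin-1, was at 1.10 ± 0.0538 in knock-out and 1.24 ± 0.0529 in ΔTAD cells, both called. Trem2, a lipid receptor of macrophages and a ligand of galectin-3, was at 0.94 ± 0.0371 and 1.14 ± 0.0371, both called. Itga6, an integrin chain, passed the count filter only through its wild-type libraries, so its lower values are a description. It is still contained in the numbers called lower and in the shares above, in both comparisons. Its level was 2.92 CPM ± 0.237 in wild-type, 0.596 CPM ± 0.375 in knock-out and 0.236 CPM ± 0.170 in ΔTAD cells. Within this list the largest called difference between knock-out and ΔTAD cells was that of Spn, which encodes the sialoglycoprotein CD43. Spn was at -0.10 ± 0.116 in knock-out cells (edgeR, adjusted p = 0.494) and 1.22 ± 0.0974 in ΔTAD cells (adjusted p = 8.19e-11). Alcam, an adhesion molecule bound by galectin-8, was at 0.09 ± 0.0278 in knock-out and -0.36 ± 0.0279 in ΔTAD cells, both called. P4hb, the disulfide isomerase bound by galectin-9, was at -0.37 ± 0.0273 and -0.17 ± 0.0272, both called.

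Genes of the response to torn endosomes and lysosomes, in which galectin-3, galectin-8 and galectin-9 take part, numbered 42, with 39 tested. In knock-out cells 17 were called higher, 5 lower and 17 neither way, in all 56.4% (all genes 45.2%) with a median of 0.11. In ΔTAD cells 20 were higher, 8 lower and 11 neither way, in all 71.8% (all genes 49.7%) with a median of 0.17. Calcoco1, a selective autophagy receptor, was at 0.75 ± 0.106 in knock-out and 0.96 ± 0.103 in ΔTAD cells. Ubxn6, a cofactor of the segregase VCP, was at 0.70 ± 0.0568 and 0.90 ± 0.0555. Trim16, a ubiquitin ligase that binds galectin-3, was at -0.44 ± 0.127 and -0.64 ± 0.129. These 3 genes were called in both comparisons. Fbxo2, which recognises exposed glycans for ubiquitination, had at most 29 counts and passed the filter only through wild-type, so its level of 1.33 CPM ± 0.509 in wild-type, 0.394 CPM ± 0.146 in knock-out and 0.252 CPM ± 0.0235 in ΔTAD cells is a description, although it stands among the genes called lower. Usp9x, a deubiquitinase, was at -0.02 ± 0.0412 in knock-out cells (edgeR, adjusted p = 0.698) and -0.66 ± 0.0416 in ΔTAD cells (adjusted p = 9.68e-13).

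Directly between knock-out and ΔTAD cells, 10 of 30 glycan synthesis genes were called higher in knock-out and 6 lower, in all 53.3% (all genes 33.0%) with a median of 0.10. For the 26 galectin-binding proteins the split was 6 higher and 7 lower, in all 50% with a median of -0.02. For the 39 genes of the damage response it was 4 higher and 8 lower, in all 30.8% with a median of -0.03, a share near that of all genes. With library size alone the splits were 11 to 2, 6 to 3 and 4 to 2.

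**Figure D5:**
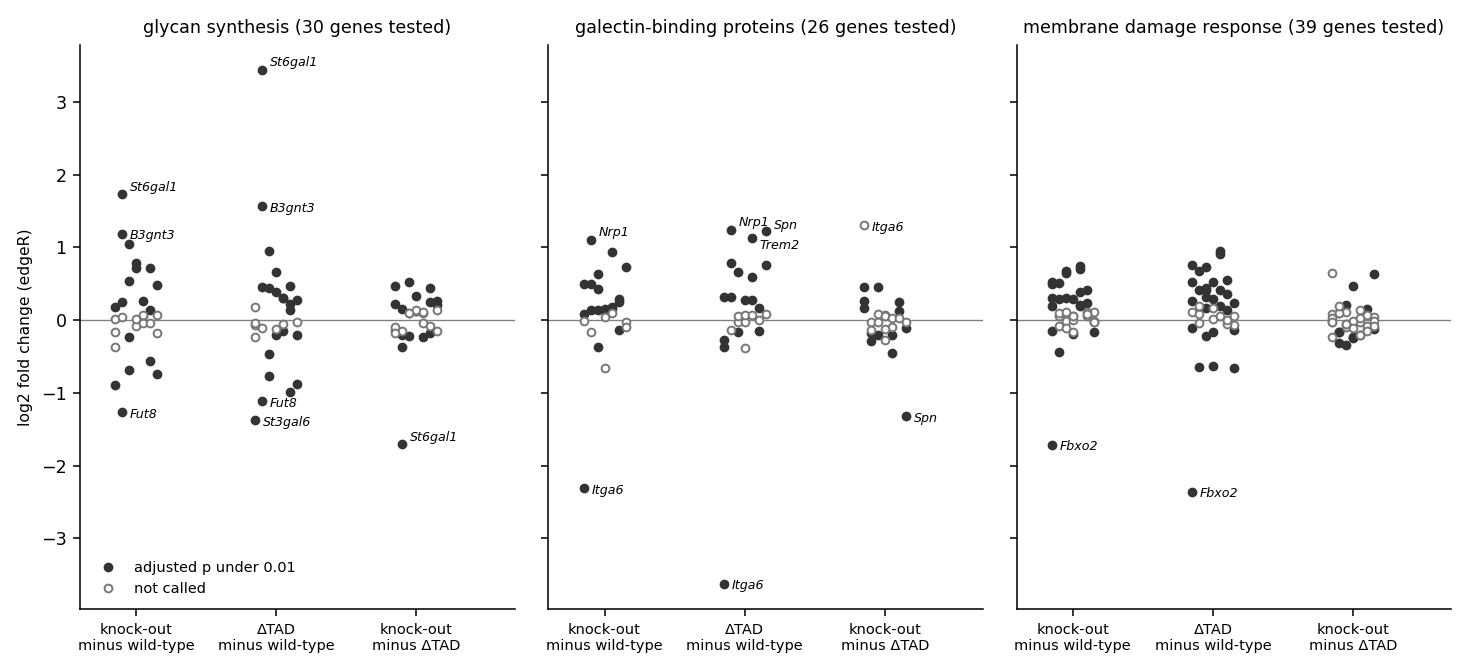
Log2 fold change of each tested gene of the glycan synthesis, galectin-binding and membrane damage lists in the 3 comparisons, with filled points for an adjusted p under 0.01, open points for others, and names for the listed genes past 1 in either direction. St6gal1 at 3.44 and Itga6, which passed the count filter only through wild-type, at -3.62 in ΔTAD minus wild-type lie farthest from 0.

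Genes whose log2 level followed each of the 6 members over the count filter most closely over the 9 libraries were listed by Pearson r, as a description. The libraries form 3 genotype groups, so the 9 points are not independent, and they share their depth and scaling across genes. For Lgalsl these were Dlst (r = 0.999), Cdc34 (0.998) and Elac2 (0.998). Pearson r does not compare the size of changes. Dlst had means of 358, 220 and 262 CPM in wild-type, knock-out and ΔTAD cells, where Lgalsl had 23.8, 0 and 0.720 CPM. For Lgals3 they were Dock10 (r = 0.999), Apobec1 (0.998) and Plxnc1 (0.998), and for Lgals3bp Mgst3, Phldb1 and Dbi (r = 0.996 each). Lgals8 was followed by Gm20056 (r = 0.991), Adamts10 (0.990) and Dhx57 (0.989), and Lgals9 by Srsf5 (r = 0.992), Mtrr (0.990) and Tbc1d9 (0.990). Lgals1 had the loosest companions, Zfp646 (r = 0.970), Zfp30 (0.962) and Elk3 (0.961).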

How the data were processed

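RNA of the 9 RAW264.7 libraries had been depleted of ribosomal RNA and sequenced as single reads. The authors used Trimmomatic for trimming, HISAT2 for alignment (mouse build GRCm38) and HTSeq for counts per Ensembl gene. The deposited files hold raw counts per gene, unnormalized, for 55487 identifiers and 5 tally lines, which were left out of library sizes. Counting mode and strand are not given in the sources used here. Counts on genes made up 46.7% to 53.2% of the tallied records.

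Genotypes came from the labels. Counts were fitted in R 4.3.3 with edgeR 4.0.16 (TMM scaling, filterByExpr with a minimum count of 10 and a minimum total of 15, quasi-likelihood F-test), 1 mean per genotype over all 9 libraries, on 14312 genes. The adjusted p threshold of 0.01 was the study's, which named no test. At this threshold the study reported fewer genes in each direction against wild-type, so the shares of all genes called are those of this fit. The common biological coefficient of variation was 0.0468. Alternatives used DESeq2 1.42.0 and limma 3.58.1 (voom), other scalings, filters and sample sets, and left out each library in turn. Scripts were tested on simulated data. TPM used the union of exons of GENCODE gene models, and log2 levels a prior count of 2. A floor is 3 counts per library, at its largest CPM. From each list, the 2 highest and 2 lowest called changes per comparison with wild-type were named, with at least 1 CPM in the higher genotype and no overlap of libraries. The members and lists were chosen with earlier results of these data known. Lgalsl was chosen on its knock-out counts.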

Additional observations from a re-analysis of the deposited data

Results flagged for a closer look

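The edited genotypes differed from each other for 12 of 20 named genes tested directly, as knock-out minus ΔTAD on the log2 scale with edgeR's quasi-likelihood test, where 33.0% of all genes were called. Of the 20, 15 had been named for the largest changes of their list against wild-type, some in a single edited genotype, which favours a direct difference. Among the galectins these were Lgals1 (0.29, adjusted p = 4.40e-06), Lgals3 (-0.31, adjusted p = 1.51e-08) and Lgals8 (0.18, adjusted p = 0.00214). Among the glycan synthesis genes they were St6gal1 (-1.71, adjusted p = 6.57e-13), B3gnt3 (-0.37, adjusted p = 0.000207) and St3gal6 (0.48, adjusted p = 0.000115). Among the galectin-binding proteins they were Trem2 (-0.20, adjusted p = 0.000105), P4hb (-0.20, adjusted p = 2.00e-06), Spn (-1.32, adjusted p = 1.18e-10) and Alcam (0.45, adjusted p = 3.12e-12). Among the membrane damage genes they were Ubxn6 (-0.20, adjusted p = 0.00252) and Usp9x (0.64, adjusted p = 8.84e-12). No test for a deviating sample was run on groups of 3 libraries. ΔTAD replicate 1 stood apart all the same. Its mean chi-square per gene, on unscaled counts, was 150.2 and 150.4 against the other ΔTAD libraries, which differed from each other by 2.28. The medians were only 3.59 and 3.51, and 0.734 between the other ΔTAD libraries, so these means do not describe a typical gene. They include CT010467.1, which took 11.0% of the counts of ΔTAD replicate 1 against 1.16% in ΔTAD replicate 3.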

How the results depend on the processing

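Of 216 recomputed counts of calls, 214 stayed within 1.5 times their value in the main fit. Among them, the galectin counts for ΔTAD against wild-type included Lgalsl, whose lower value there is a description. Of 270 recomputed values of the 5 tested galectin genes, 258 kept direction and side of the threshold. Another 5 lost a call, 7 gained one and 0 changed direction. With scaling by library size alone, 11 galectin-binding genes were called between knock-out and wild-type cells in place of 19, and 6 membrane damage genes between knock-out and ΔTAD cells in place of 12, and the cause was not tested. Lgals3 held 45.9% of the summed wild-type TPM with the longest transcript in place of 42.5%. The median of the Lgalsl neighbourhood in knock-out cells was -0.0396 within 5 Mb in place of 0.12 within 1 Mb. The highest likeness to Lgalsl was 0.999 by Pearson and 0.987 by Spearman, the latter for a gene other than the 3 listed. Dlst, Cdc34 and Elac2 each had a Spearman rho of 0.966 with Lgalsl. For Lgals3, 9 genes shared the highest rho of 1, above those of Dock10, Apobec1 and Plxnc1, so the genes named depend on the measure. Leaving out each library in turn, 4 to 5 of these 5 genes were called in knock-out against wild-type, 4 to 5 in ΔTAD against wild-type and 2 to 3 in knock-out against ΔTAD. Lgals1 in ΔTAD against wild-type was also called with limma-voom (adjusted p = 0.00672), DESeq2 size factors (0.00901), library size alone (-0.21, adjusted p = 0.00465), a filter of 1 CPM (0.00623) and without ΔTAD replicate 3 (0.00143), and was farthest from a call without wild-type replicate 1 (-0.08, adjusted p = 0.115).

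Replicate numbers run from 1 to 3 in each genotype, but the deviations of same-numbered libraries correlated at -0.0717 to 0.0200 in 9 pairs, so the numbers were taken as names. With the replicate number as a block, 5 galectin genes were called in knock-out against wild-type and 3 in knock-out against ΔTAD, as without it. In ΔTAD against wild-type Lgals3, Lgals3bp, Lgals8 and Lgals9 stayed called and Lgals1 stayed uncalled (edgeR, adjusted p = 0.0211). Of the galectin-binding genes, 17 in place of 19 were called in knock-out against wild-type.

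Depth limited the values of Lgals4, Lgals2, Lgals12, Lgals7 and Grifin, and of Lgalsl in knock-out cells.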
